A study of Mus musculus with 12 samples.

Results

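The genes described here encode solute carriers other than the mitochondrial carriers, read in mouse cytotoxic T lymphocytes (CTL) before and after the T cell antigen receptor (TCR) was triggered. The rule that picks them goes by gene symbol. Every gene of the expression table whose symbol begins with Slc was taken, the 34 members of the SLC25 family of mitochondrial carriers were set aside, and so were 11 amino acid, glucose and lactate carriers with an established place in T cell activation (Slc7a5, Slc3a2, Slc1a5, Slc7a1, Slc7a6, Slc38a1, Slc38a2, Slc2a1, Slc2a3, Slc16a1 and Slc16a3). This left 139 of the 11022 genes in the table. The table held only genes that had passed the authors' filter on low counts, so carriers below that filter are not analysed here. Of the 139, 4 carry an Slc symbol but are not carriers themselves.

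All 12 cultures were CTL of P14 mice, whose transgenic TCR recognises peptide gp33-41 of the lymphocytic choriomeningitis virus glycoprotein, so that every cell can answer the same antigen. Lymph nodes or spleens of 3 female mice aged 9 to 13 weeks gave 3 biological replicates. The cells were primed with the peptide, interleukin-2 (IL-2) and interleukin-12 and then expanded in IL-2, which was kept at 20 ng/mL in all 4 groups. Unstimulated CTL got no peptide, and the other groups got 100 ng/mL peptide for 4 h, alone (TCR), with 10 µM IC87114, an inhibitor of the p110δ catalytic subunit of phosphoinositide 3-kinase (PI3K), or with 2 µM PD184252, an inhibitor of the kinase MEK. There were 3 cultures per group. Values are FPKM, fragments per kilobase of transcript scaled for sequencing depth, which allow levels of different genes to be set side by side.

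The cultures matched their label. All 7 listed CD8 T cell markers were in the table, with Cd8a at a mean of 221 FPKM in unstimulated and 360 FPKM in TCR-triggered CTL, whereas none of 4 B cell, 6 macrophage and monocyte and 8 erythroid markers was among the genes in it. Cd4 was at 0.773, 2.69, 2.94 and 0.45 FPKM in unstimulated, TCR, IC87114 and PD184252 cultures. Of 2 natural killer markers only Klrb1c was in the table, at 5.39 FPKM before and 1.79 FPKM after triggering. Of 4 dendritic cell markers only Itgax was in it, at 0.75 FPKM or less in every culture. The part of these markers in the results was not tested. In such bulk cultures, fewer cells of a kind and less RNA per cell cannot be told apart. Sequencing depth, read from the spacing of low FPKM values, could be settled in 8 of the 12 cultures and lay between about 7800000 and 11800000 reads. At that depth 3 reads in a transcript of 1 kb amount to 0.25 to 0.38 FPKM. Levels below this rest on a few reads in transcripts of about that length, and on more in longer ones.

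Solute carriers are membrane proteins that let small molecules cross lipid bilayers. Some work as facilitators that follow a gradient, others as exchangers or as cotransporters that spend the gradient of sodium or protons, and many sit in lysosomes, vesicles or the Golgi apparatus rather than at the cell surface. A T cell that meets antigen has to import amino acids, nucleosides, vitamins and ions as it prepares to grow and divide, and the best known carriers of this kind are those set aside above. The members were sorted by the usual substrate of their family, except that the SLC5 and SLC6 families were split by gene. Slc5a3 and Slc5a6 thus stand with the vitamins and organic ions, and Slc5a11 with the sugars. The first groups were amino acids and peptides (17 genes), sugars and carboxylates (15), nucleosides and nucleotide sugars (25) and metals (25). The others were inorganic ions and pH (29), lipids and choline (8), vitamins, organic ions and other substrates (16), and genes that are not carriers (4).

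Most members were present at low to middling levels. In unstimulated CTL the median member was at 4.52 FPKM, 66 of the 139 were between 1 and 10 FPKM, 41 between 10 and 50, and 6 at 50 FPKM or above. The phosphate importer Slc20a1 (98.8 FPKM), the choline transporter-like gene Slc44a2 (77.0 FPKM) and Slc9a3r1 (75.0 FPKM), which encodes an adaptor that anchors membrane proteins, stood at the top of that group. After TCR triggering the median was 5.85 FPKM, and the equilibrative nucleoside transporter Slc29a1 had the highest level (156 FPKM). It was also the highest with IC87114 (123 FPKM), whereas with PD184252 Slc44a2 was (109 FPKM). The number of members below 0.1 FPKM was 9 in unstimulated CTL and 2 in each of the other groups.

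The first comparison asked which carriers 4 h of antigen altered in CTL that were already differentiated. A gene was called changed where its adjusted p was below 0.05 and its level differed more than 2-fold. TCR triggering raised 28 members and lowered 16. The 28 make up 20.1% of the members, against 8.87% of all 11022 genes called higher, and the 16 make up 11.5%, against 11.1% of all genes called lower. Without the 2-fold requirement 99 members (71.2%) passed, 54 of them higher and 45 lower, against 68.6% of all genes. The median member had a log2 fold change of 0.05, against -0.01 over all genes. These FPKM were scaled on the assumption that most genes hold their level, and the FPKM summed over all genes was higher in every TCR culture (620715 to 666922) than in every unstimulated culture (470420 to 495945). Rescaled to 1 common sum, the median of all genes moved to -0.41 and the calls became 24 higher and 30 lower, so directions below are relative to the typical gene. On that scale the calls of Slc16a13, Slc19a1, Slc4a7 and Slc6a8, all of them rises of under 3-fold, were lost.

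**Figure D1:**
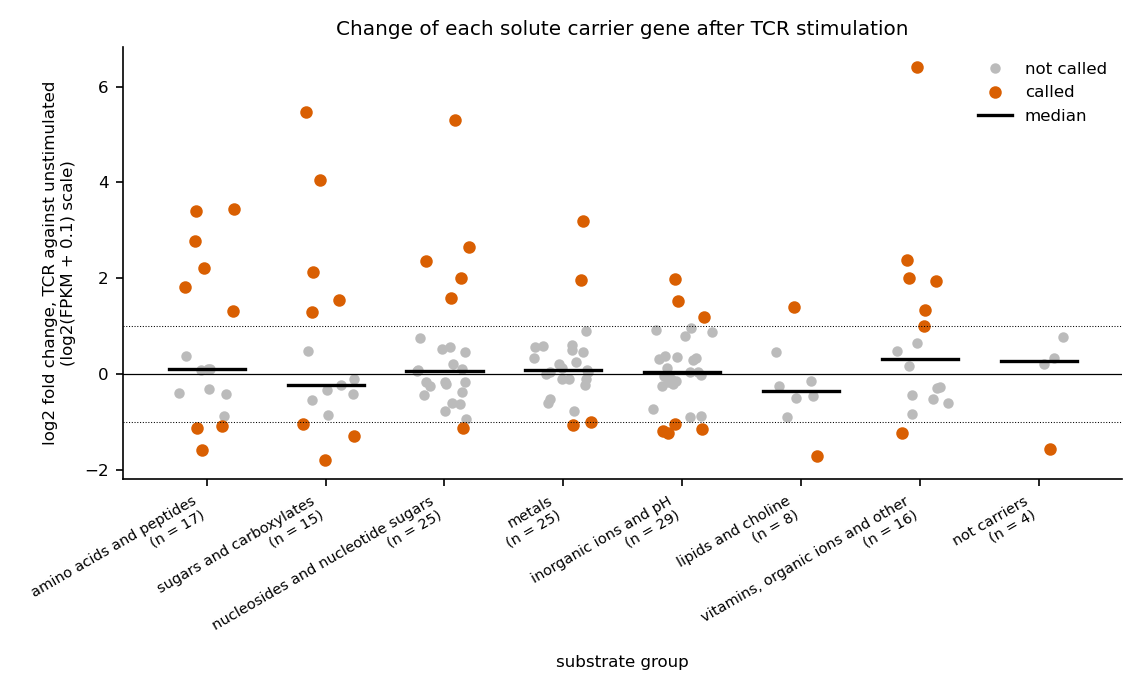
Each point is 1 of the 139 members, placed by its log2 fold change between TCR-triggered and unstimulated CTL (vertical axis, from log2(FPKM + 0.1)) in its substrate group (horizontal axis), with a bar for the group's median and colored points for called genes. Most members sit near 0, and the highest points, those of Slc18a2, Slc45a3, Slc35d3 and Slc13a3, belong to genes at or near 0 at rest, whose height depends on the 0.1 FPKM added.

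The strongest inductions were of carriers at or near 0 FPKM in unstimulated CTL. Slc18a2, the vesicular monoamine transporter that loads dopamine, serotonin, noradrenaline and histamine into vesicles, was listed at 0 in all 3 unstimulated cultures and read 8.49, 9.03 and 7.86 FPKM after triggering (adjusted p = 8.41e-14). Slc35d3, an orphan member of the nucleotide sugar transporter family, was likewise listed at 0 in all 3 and read 3.55, 4.41 and 3.65 FPKM (adjusted p = 1.18e-12). Slc45a3, a member of the SLC45 family of sugar transporters also known as prostein, went from 0.03, 0 and 0 to 4.76, 4.26 and 5.21 FPKM (adjusted p = 2.67e-12). In each of these the lowest triggered culture was far above the highest resting one. Groups overlapped in none of the 28 raised and 16 lowered members. Such separation, here and where it is named below, goes with being called and adds no further support. Its share over all genes was not counted. Slc13a3, the sodium-dependent dicarboxylate transporter that takes up succinate and related acids, read 0, 0 and 0.02 FPKM before and 2.19, 1.69 and 1.23 FPKM after (adjusted p = 1.09e-09). No fold is given for these 4 genes, because it would depend on the 0.1 FPKM added before logs were taken. Slc18a2 and Slc35d3, at 0 at rest, could pass the authors' filter on low counts only through the triggered groups. A higher level there was thus a condition of their being in the table, which limits what their p-values show. The same caution applies to Slc45a3 and Slc13a3, near 0 at rest.

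Among carriers with a measurable resting level, the rises were led by a neutral amino acid transporter and a magnesium transporter. Slc1a4, which exchanges alanine, serine, cysteine and threonine, read 3.31, 3.42 and 3.36 FPKM in unstimulated and 38.77, 35.98 and 35.82 FPKM in TCR-triggered cultures, 11-fold higher (3.41 ± 0.07 on the log2 scale, where errors are SE, and adjusted p = 5.26e-15). Slc41a1, which moves magnesium across the plasma membrane, went from 2.81, 2.33 and 2.15 to 21.72, 22.48 and 25.14 FPKM, 9.51-fold higher (3.20 ± 0.12, adjusted p = 6.45e-12). The replicates of both genes lay close together within each group.

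The promoter windows of 5 of these induced genes are printed because the first 3 went from about 0 to a measurable level and were lower with the PI3K inhibitor, and the other 2 had the largest folds among genes with a measurable resting level. Each runs from 250 bases before to 10 bases past the annotated RefSeq start (build GRCm38.p6), 5′ to 3′ on the gene's own strand, with capitals for matches to 9 motifs searched on both strands: CACGTG (E-box), TGANTCA (AP-1), TGACGTCA (cyclic AMP response element), TGATGNAA (composite C/EBP-ATF site), TGTTTAC (forkhead), GCGTGGGCG (EGR), GGGCGG (GC box), CCAAT and TATAAA. The windows are, in order, chr19:59260628-59260887 on the plus strand, chr10:19851450-19851709 and chr2:165473188-165473447 on the minus strand, chr1:131827762-131828021 on the plus strand and chr11:20332704-20332963 on the minus strand. The start used for Slc35d3 lies inside the range annotated for that gene (chr10:19847917-19856634). Its window is therefore not upstream of the whole annotated gene, and no window at the outer start was searched.
Slc18a2: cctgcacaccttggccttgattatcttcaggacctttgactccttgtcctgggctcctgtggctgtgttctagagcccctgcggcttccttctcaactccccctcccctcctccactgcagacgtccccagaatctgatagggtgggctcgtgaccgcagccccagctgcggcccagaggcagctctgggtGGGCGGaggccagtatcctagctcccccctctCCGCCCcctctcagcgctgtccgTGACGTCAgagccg
Slc35d3: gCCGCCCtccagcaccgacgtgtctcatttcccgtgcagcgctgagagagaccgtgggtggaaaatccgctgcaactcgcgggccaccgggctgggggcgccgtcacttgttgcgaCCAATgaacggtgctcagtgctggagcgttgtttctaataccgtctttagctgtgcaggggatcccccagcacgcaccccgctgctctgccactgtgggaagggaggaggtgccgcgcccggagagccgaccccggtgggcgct
Slc13a3: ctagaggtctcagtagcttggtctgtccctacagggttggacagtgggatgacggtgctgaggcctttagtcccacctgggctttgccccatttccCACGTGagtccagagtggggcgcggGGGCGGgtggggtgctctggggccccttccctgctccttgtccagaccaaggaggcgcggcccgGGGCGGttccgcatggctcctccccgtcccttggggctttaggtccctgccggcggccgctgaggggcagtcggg
Slc41a1: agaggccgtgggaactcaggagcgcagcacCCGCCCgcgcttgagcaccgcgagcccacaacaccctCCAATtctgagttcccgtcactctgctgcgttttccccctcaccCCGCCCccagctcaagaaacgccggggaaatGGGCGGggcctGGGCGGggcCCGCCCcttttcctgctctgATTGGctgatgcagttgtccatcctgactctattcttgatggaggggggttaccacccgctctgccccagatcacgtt
Slc1a4: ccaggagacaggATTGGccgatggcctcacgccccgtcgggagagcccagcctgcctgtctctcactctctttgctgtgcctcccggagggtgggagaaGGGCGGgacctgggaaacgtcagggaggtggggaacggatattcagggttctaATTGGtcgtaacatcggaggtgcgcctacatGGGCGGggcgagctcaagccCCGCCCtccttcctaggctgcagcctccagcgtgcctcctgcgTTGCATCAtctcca

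The Slc18a2 window holds a full TGACGTCA from base -4 to base 4 around the start, a motif found in 1.67% of the 32851 mouse windows of this length. The Slc1a4 window holds TGATGNAA on the reverse strand at the same place, read there as its complement (3.59% of windows), and the Slc13a3 window holds CACGTG from -154 to -149 (6.34% of windows). GC boxes occur in all 5, with 5 of them in Slc41a1, and are common (33.4% of windows), as is CCAAT (34.6%), which the windows of Slc35d3, Slc41a1 and Slc1a4 hold. Of the 28 raised members, 23 had a window, as had 105 members in all. GGGCGG was in 16 of the 23 and 72 of the 105, so it was about as frequent in members at large. CCAAT was in 12 and 44, CACGTG in 2 and 16, TGACGTCA in 1 and 2, and TGATGNAA in 2 and 4. TGANTCA was in 1 of the 23 (Slc37a2; 7.03% of all windows), TGTTTAC in 2 (Slc5a6 and Slc7a11; 3.3%), GCGTGGGCG in 1 (Slc29a1; 0.554%) and TATAAA in 2 (Slc45a3 and Slc4a7; 12.7%). These are matches of letters and were not tested as binding sites.

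**Figure D2:**
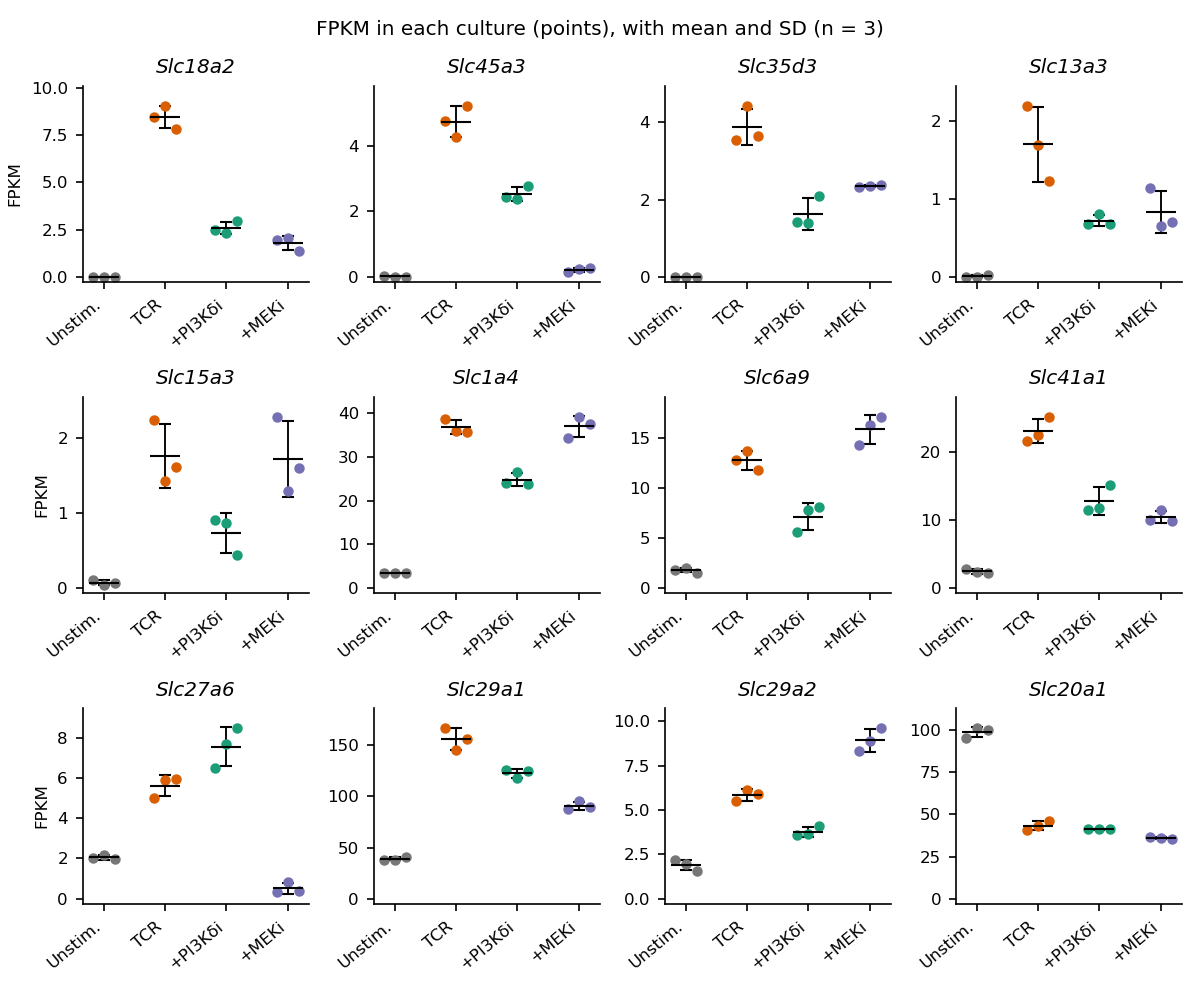
FPKM (vertical axes, linear and starting at 0) of 12 members in each of the 12 cultures, with points for cultures, and the mean and SD of each group. Slc18a2, Slc35d3, Slc45a3 and Slc13a3 are at or near 0 in unstimulated CTL, Slc20a1 goes from about 98.8 to 43.3 FPKM on TCR triggering, and Slc27a6 and Slc45a3 are far lower in PD184252 than in IC87114 cultures.

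Among carriers of amino acids and peptides 6 of 17 rose and 3 fell (35.3% and 17.6%, where all genes gave 8.87% and 11.1%). Beside Slc1a4, the glycine transporter Slc6a9 rose 7.19-fold, from 1.80, 1.99 and 1.52 to 12.75, 13.64 and 11.78 FPKM (log2 fold change 2.78 ± 0.14, adjusted p = 1.18e-10). The cationic amino acid transporter Slc7a3 rose 3.6-fold to a mean of 16.1 FPKM, and Slc7a11, the cystine/glutamate exchanger that supplies cysteine for glutathione, rose 7-fold but only to 1.07 FPKM. Slc15a3, which carries histidine and small peptides out of lysosomes, read 0.11, 0.04 and 0.06 FPKM before and 2.23, 1.42 and 1.61 FPKM after triggering (adjusted p = 3.87e-08). The glutamate transporter Slc1a2 was called higher as well, although it stayed at 0.22 FPKM or less in every TCR culture. Its annotated exons hold 13133 bases, so this low level stands for more reads than in a transcript of 1 kb.

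The lowered genes of this group also had a lysosomal carrier among them. Slc36a1, a proton-coupled amino acid transporter of the lysosome, fell from 3.98, 3.15 and 3.06 to 0.87, 1.15 and 1.16 FPKM (log2 fold change -1.59 ± 0.16, adjusted p = 4.39e-07). Slc43a2, which facilitates the passage of large neutral amino acids, fell from a mean of 4.52 to 2.02 FPKM, and Slc38a8 fell from 0.41 to 0.153 FPKM. The genes of the group with the highest mean over all 12 cultures were not called: Slc38a10 was at 33.6 and 35.9 FPKM, and Slc43a3, a purine nucleobase transporter placed here by its family, was at 36.1 and 19.8 FPKM (-0.87 ± 0.09, adjusted p = 8.57e-07, under the 2-fold requirement).

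Among carriers of sugars and carboxylates 5 of 15 rose and 3 fell (33.3% and 20%, against the same 8.87% and 11.1% of all genes), beside a median log2 fold change of -0.23. The rises were of genes with low resting levels. After Slc45a3 and Slc13a3 came Slc2a6, a member of the glucose facilitator family that resides in lysosomes, which read 0.04 FPKM in each unstimulated culture and 0.29, 0.57 and 0.76 FPKM after triggering. Slc37a2, a sugar-phosphate exchanger of the endoplasmic reticulum, rose 3.06-fold to 5.05 FPKM, and Slc16a13, of the monocarboxylate transporter family, rose 2.51-fold to 7.72 FPKM. The falls included 2 other facilitators of the SLC2 family. Slc2a8, an intracellular hexose transporter, fell from 2.44, 2.12 and 2.21 to 0.69, 0.48 and 0.59 FPKM (-1.79 ± 0.17, adjusted p = 3.29e-07), and the urate transporter Slc2a9 from 1.80, 1.27 and 1.91 to 0.58, 0.63 and 0.61 FPKM (-1.30 ± 0.19, adjusted p = 2.08e-05). Slc5a11, a sodium-coupled inositol transporter, fell from 1.13 to 0.493 FPKM. The highest by their mean over all 12 cultures, the monocarboxylate transporter family member Slc16a6 (43.6 and 37.1 FPKM) and the sugar transporter Slc50a1 (24.1 and 19.1 FPKM), were not called.

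All 3 equilibrative nucleoside transporters in the table rose. These proteins let purine and pyrimidine nucleosides pass membranes down their gradient, Slc29a1 and Slc29a2 at the cell surface and Slc29a3 in lysosomes. Slc29a1 went from 38.31, 38.13 and 40.68 to 166.52, 145.80 and 156.15 FPKM, 4-fold higher (2.00 ± 0.06, adjusted p = 3.26e-13). Slc29a2 went from 2.16, 1.98 and 1.58 to 5.51, 6.15 and 5.90 FPKM (1.58 ± 0.12, adjusted p = 1.63e-08), and Slc29a3 from 3.09, 3.53 and 2.77 to 19.27, 21.32 and 19.54 FPKM (2.65 ± 0.10, adjusted p = 8.75e-12). In each, every triggered culture was above every resting one. In the whole group of nucleoside and nucleotide sugar carriers 5 of 25 genes rose (20%, against 8.87% of all genes) and 1 fell (4%, against 11.1%). Of its other genes, which are mostly nucleotide sugar transporters of the Golgi apparatus and endoplasmic reticulum, Slc35d3 and Slc35e4 (0.647 to 3.70 FPKM) rose and Slc35d2 fell from 6.54 to 2.94 FPKM (adjusted p = 3.20e-07). Slc35b1, which exchanges ATP and ADP at the endoplasmic reticulum, was at 59.8 and 89.1 FPKM and was not called.

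Of the metal carriers 2 of 25 rose and 2 fell, 8% each and no more than the 8.87% and 11.1% of all genes. Beside Slc41a1, the zinc importer Slc39a10 rose from 3.91, 4.25 and 3.66 to 14.34, 16.81 and 15.77 FPKM (1.96 ± 0.13, adjusted p = 3.78e-09). Slc39a11, of the same ZIP family of zinc importers, fell from 8.70 to 4.33 FPKM, and Slc41a3, a relative of Slc41a1, fell from 0.55 to 0.213 FPKM. The 2 SLC41 genes thus went in opposite directions, at very different levels. Slc39a7, which releases zinc from the endoplasmic reticulum, and Slc39a6 had the highest means over all 12 cultures (before and after triggering 61.64 and 91.35 FPKM, and 40.61 and 37.98 FPKM) and were not called. Of a list of 19 other genes of zinc and iron handling in the table, the haem-degrading enzyme Hmox1 rose from 8.87 to 39.9 FPKM, and the ferrireductase Steap3 (1.62 to 0.503 FPKM) and the last enzyme of haem synthesis, Fech (6.71 to 3.05 FPKM), fell. That is 1 rise and 2 falls in the 19, where 8.87% of all genes rose and 11.1% fell. The metallothionein Mt1 was at 490 and 535 FPKM (log2 fold change 0.13, adjusted p = 0.204).

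Among carriers of inorganic ions 3 of 29 rose and 4 fell (10.3% and 13.8%), near the 8.87% and 11.1% of all genes. The largest change in FPKM was in Slc20a1, a sodium-coupled phosphate importer and the most abundant member at rest. It fell from 95.33, 101.05 and 100.06 to 40.83, 43.11 and 46.04 FPKM (-1.19 ± 0.05, adjusted p = 3.82e-11). Slc9a9, a sodium/proton exchanger of endosomes, fell from 6.27, 5.41 and 5.02 to 2.70, 2.19 and 2.01 FPKM, lower in every triggered culture (adjusted p = 8.68e-07). The sodium-bicarbonate cotransporter Slc4a7 rose from 8.01 to 18.3 FPKM, Slc4a4, of like function, from 0.213 to 0.783 FPKM, and Slc4a10 fell from 0.717 to 0.293 FPKM. The chloride/bicarbonate exchanger Slc4a2 was at 13.5 and 26.2 FPKM, just under the 2-fold requirement (0.96 ± 0.08, adjusted p = 7.04e-08), and passed it when unstimulated replicate 2 was left out (1.02). The vesicular glutamate transporter Slc17a6 was called higher from 0.02, 0 and 0 to 0.26, 0.30 and 0.42 FPKM.

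A list of 13 other genes of cell volume and membrane potential set these ions in context. Of the 13, 2 rose and 2 fell, where 8.87% of all genes rose and 11.1% fell. The calcium-activated potassium channel Kcnn4 rose from 50.5 to 117 FPKM and the sodium pump subunit Atp1b2 from 0.22 to 0.987 FPKM. Lrrc8b, a subunit of the volume-regulated anion channel, fell from 8.35 to 3.03 FPKM, as did Wnk1, a kinase that controls cation-chloride cotransporters. The most abundant anion channel subunit, Lrrc8c, was at 88.6 and 44.7 FPKM and narrowly missed the 2-fold requirement (-0.99 ± 0.06, adjusted p = 1.39e-09).

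In the small group of lipid and choline carriers 1 gene of 8 rose and 1 fell (12.5% each, against 8.87% and 11.1% of all genes), and the 2 fatty acid transport proteins that were called moved in opposite directions. Slc27a1 fell from 2.99, 2.88 and 2.94 to 0.62, 0.90 and 0.99 FPKM (-1.72 ± 0.23, adjusted p = 8.66e-06). Slc27a6 rose from 2.02, 2.18 and 1.97 to 5.01, 5.89 and 5.93 FPKM (1.40 ± 0.22, adjusted p = 4.70e-05). Slc44a2 was at 77.0 and 70.0 FPKM and Slc10a3, a relative of the bile acid transporters, at 14.4 and 19.8 FPKM, neither called. For the next 2 lists the shares of all genes are again 8.87% called higher and 11.1% called lower. Of 13 listed genes of fatty acid uptake and activation, the acyl-CoA synthetase Acsl6 was the 1 called, from 0.0367 to 0.56 FPKM. Of 11 listed genes of choline use, Pcyt1a, the rate-limiting enzyme of phosphatidylcholine synthesis, rose 7.36-fold, from 4.23, 3.91 and 4.73 to 31.14, 33.21 and 30.31 FPKM, while its paralog Pcyt1b (2.02 to 0.597 FPKM) and Lpcat1 (3.01 to 1.25 FPKM), which makes phosphatidylcholine from its lyso form, fell.

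Carriers of vitamins, organic ions and other substrates held 6 genes of 16 that rose and 1 that fell (37.5% and 6.25%, against 8.87% and 11.1% of all genes), beside a median log2 fold change of 0.32. The reduced folate carrier Slc19a1 went from 23.14, 21.27 and 19.98 to 57.46, 52.56 and 52.18 FPKM (1.33 ± 0.06, adjusted p = 5.91e-11). Slc5a6, the multivitamin transporter for biotin and pantothenate, rose 4.16-fold to 8.48 FPKM. Slc52a3, a riboflavin transporter, was the vitamin carrier that fell, from 16.74, 16.99 and 15.33 to 6.67, 7.10 and 6.93 FPKM (-1.23 ± 0.08, adjusted p = 1.71e-09). The other riboflavin transporter in the table, Slc52a2, was at 7.35, 8.28 and 7.06 FPKM before and 11.99, 9.78 and 9.78 FPKM after triggering and was not called (0.47 ± 0.10, adjusted p = 0.000494). The inositol importer Slc5a3 rose from 0.86, 0.94 and 0.94 to 4.61, 5.57 and 5.54 FPKM (2.39 ± 0.11, adjusted p = 5.96e-11), the organic anion transporter Slco4a1 3.86-fold to 63.8 FPKM, and the creatine transporter Slc6a8 from 0.207 to 0.5 FPKM. The taurine transporter Slc6a6 was at 43.3 and 48.7 FPKM (0.17 ± 0.08, adjusted p = 0.0842).

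Of the 4 genes that are not carriers, Slc9a3r1 fell from 75.61, 76.75 and 72.53 to 26.56, 24.22 and 24.67 FPKM (-1.57 ± 0.07, adjusted p = 2.17e-11), to 33.5% of its resting level. Slc7a6os, named for its place opposite Slc7a6, was at 21.6 and 36.8 FPKM and was not called.

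**Figure D3:**
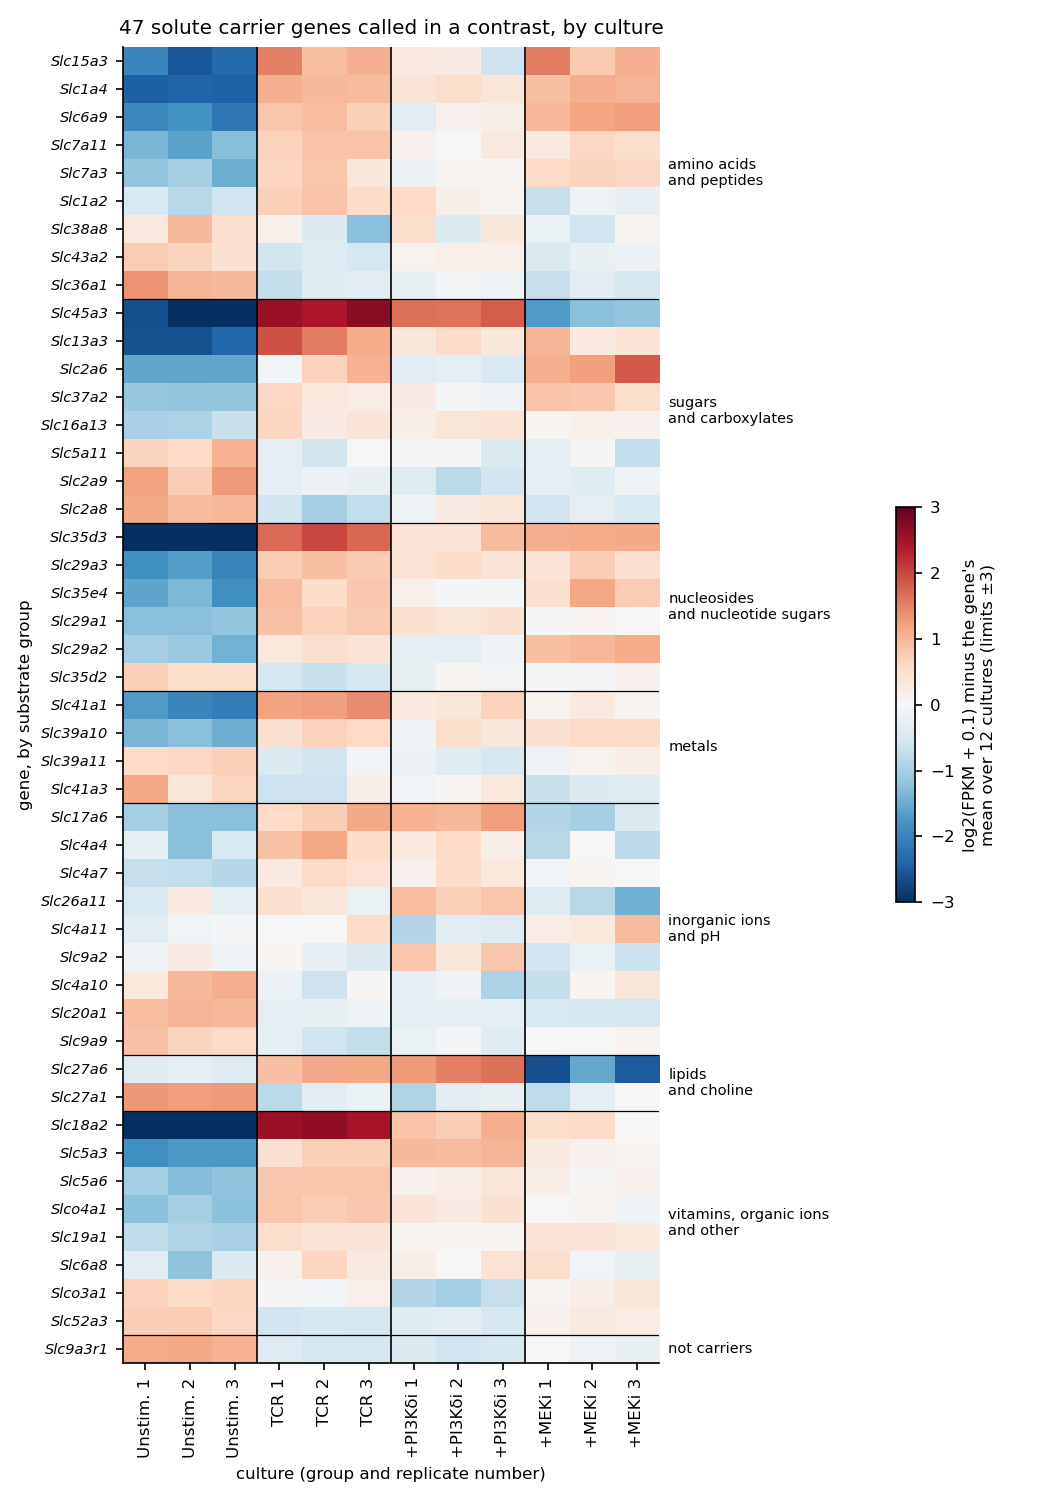
Of the 48 members called in any of the 4 comparisons, 47 are drawn (rows, in substrate groups) in the 12 cultures (columns). Color is log2(FPKM + 0.1) minus the gene's mean over the cultures, limited to 3 in either direction, and shows 28 genes called higher and 15 called lower after TCR triggering.

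The calls of 6 genes of low level or low fold were lost when 1 culture was left out. These were Slc38a8 (log2 fold change -0.72 without TCR replicate 3 and -0.90 without unstimulated replicate 2), Slc39a11 (between -0.97 and -0.90 without unstimulated replicate 3, TCR replicate 1 or TCR replicate 2), and Slc41a3 (between -0.93 and -0.85 without unstimulated replicate 1, TCR replicate 1 or TCR replicate 2). The others were Slc4a10 (between -0.95 and -0.86 without unstimulated replicate 2 or 3 or TCR replicate 2), Slc5a11 (-0.91 without unstimulated replicate 3 and -0.92 without TCR replicate 2) and Slc6a8 (0.72 without unstimulated replicate 2 and 0.85 without TCR replicate 2). Some values may also hold reads of a neighbour, since counting by strand is not stated in the sources used here. The exons of Slc6a9 overlap genes on the other strand over 1986 bases, among them B4galt2 and Ccdc24, those of Slc15a3 overlap Tmem132a over 1541 bases, and those of Slc20a1 overlap over 732 bases. In addition, 68.9% of the 100-base stretches of Slc39a7 and 10.6% of those of Slc45a3 also occur in another annotated gene.

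Summed over all members, the carriers amounted to 1563.3 ± 23.3 FPKM in unstimulated and 1843.4 ± 12.6 FPKM in TCR-triggered CTL (SD, n = 3), and to 0.326% and 0.289% of the FPKM summed over all genes, so that the direction of the total depends on the scale. The sum of the nucleoside and nucleotide sugar carriers was 372 FPKM before and 528 FPKM after triggering (0.0775% and 0.0826% of all FPKM), and that of the vitamin and organic ion carriers 163 and 250.3 FPKM (0.034% and 0.0392%). These were higher after triggering on both scales. The amino acid carriers went from 105 to 146 FPKM, while their shares (0.0219% ± 0.0016 and 0.0228% ± 0.00067, SD, n = 3) differed by less than the spread between cultures. The metal carriers went up in FPKM (337 and 409) and down as a share (0.0702% and 0.064%). The inorganic ion carriers were lower on both scales (231 and 199 FPKM, and 0.0481% and 0.0311%). There Slc20a1 alone fell from 98.8 to 43.3 FPKM, by more than the whole sum did. No test was made on these sums.

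**Figure D4:**
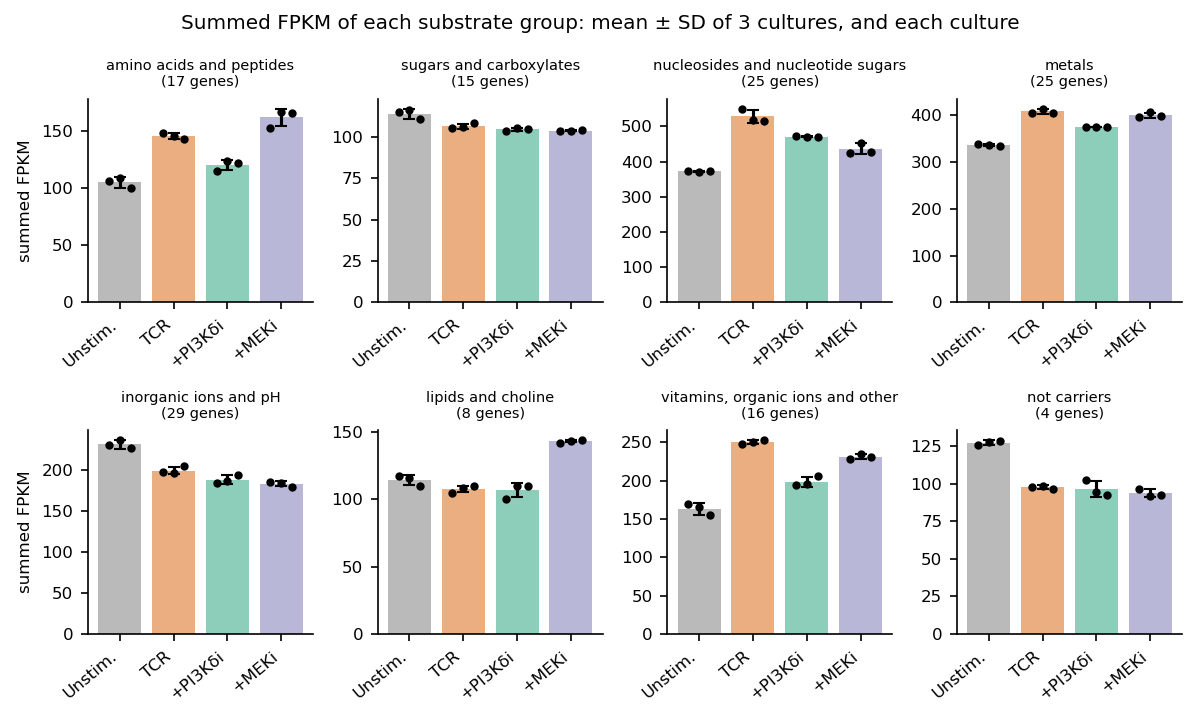
Summed FPKM (vertical axes, linear and starting at 0) of the members of each substrate group, as bars for the mean of 3 cultures with SD and points for cultures. The nucleoside sum is 372, 528, 470 and 436 FPKM in unstimulated, TCR, IC87114 and PD184252 cultures, and the metal sum, 337 and 409 FPKM before and after triggering, goes the other way as a share of all FPKM.

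The second comparison asked what the carriers owed to PI3K p110δ during triggering, and set TCR cultures with IC87114 against TCR cultures without it. Since these and the MEK comparison share the TCR cultures with the first one, a chance high or low value there enters all of them. With IC87114 4 members were called lower (2.88%, against 1.38% of all genes) and 0 higher (against 0.499% of all genes). The highest log2 fold change of a member was 0.92. The 2-fold requirement thus fixed the count of 0 in limma, whether p was adjusted or not. By adjusted p alone 52 members (37.4%) passed, 19 higher and 33 lower, against 25.6% of all genes, and the median log2 fold change was -0.03.

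The 4 lowered genes were Slc18a2, Slc35d3, Slc15a3 and Slc13a3. Slc18a2 read 2.50, 2.31 and 2.94 FPKM with IC87114 against 8.49, 9.03 and 7.86 without, or 30.5% of the TCR mean (log2 fold change -1.68 ± 0.17, adjusted p = 7.27e-06). Slc35d3 read 1.41, 1.38 and 2.10 FPKM, 42.1% of the TCR mean (-1.22 ± 0.17, adjusted p = 0.000157). All 3 inhibited cultures of both genes were below all 3 TCR cultures and above the 0 of unstimulated CTL. Slc15a3 read 0.90, 0.86 and 0.43 FPKM, 41.6% of the TCR mean (-1.19 ± 0.28, adjusted p = 0.00591), and Slc13a3 read 0.68, 0.81 and 0.68 FPKM, 42.5% (-1.10 ± 0.24, adjusted p = 0.00375). The call of Slc15a3 was lost without IC87114 replicate 3 (-0.90) and that of Slc13a3 without TCR replicate 1 (-0.91) or with all cultures scaled to 1 sum (-0.93).

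Several of the abundant induced carriers were lower with IC87114 by less than 2-fold. Slc1a4 read 24.12, 26.59 and 23.72 FPKM, 67.3% of the TCR mean (-0.57 ± 0.07, adjusted p = 4.12e-05), Slc6a9 was at 56% (-0.84 ± 0.14, adjusted p = 0.00041) and Slc7a3 at 64.2% (-0.62 ± 0.13, adjusted p = 0.00238). These 3 amino acid carriers thus passed the p threshold without the 2-fold requirement. Slc41a1 was at 55.4% of the TCR mean, Slc45a3 at 53.5%, Slc19a1 at 76.2% and Slc29a1 at 78.6%. The organic anion transporter Slco3a1, which had 29.8 FPKM at rest and 19.5 FPKM after triggering, was at 10.6 FPKM with IC87114 (-0.88 ± 0.09, adjusted p = 1.51e-05). Higher levels were found for Slc2a8, at 0.96, 1.26 and 1.38 FPKM against 0.69, 0.48 and 0.59 (0.92 ± 0.17, adjusted p = 0.00153). It reached a 2-fold call when TCR replicate 1 (1.03) or IC87114 replicate 1 (1.06) was left out. Slc2a6 (0.29, 0.57 and 0.76 FPKM without and 0.23, 0.24 and 0.20 FPKM with IC87114; -0.91) was called lower without TCR replicate 1 (-1.23), and the sodium/proton exchanger Slc9a2 (0.87) was called higher without IC87114 replicate 2 (1.03).

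The third comparison asked the same of MEK, the kinase that activates ERK. With PD184252 8 members were called lower (5.76%, against 2.51% of all genes) and 0 higher (against 0.98% of all genes). Here too the 2-fold requirement fixed the 0 at any p, as the highest log2 fold change of a member was 0.98. By adjusted p alone 57 members (41%) passed, 27 higher and 30 lower, against 37.1% of all genes. Slc45a3 dropped to 0.15, 0.24 and 0.26 FPKM, 4.57% of the TCR mean (-3.95 ± 0.19, adjusted p = 2.87e-09). Slc27a6 dropped to 0.34, 0.84 and 0.38 FPKM, 9.27% of the TCR mean (-3.29 ± 0.22, adjusted p = 6.78e-08) and below the 1.97 FPKM of its lowest resting culture. Slc18a2 was at 1.97, 2.03 and 1.35 FPKM, 21.1% of the TCR mean (-2.20 ± 0.17, adjusted p = 1.85e-07), and Slc41a1 at 10.04, 11.50 and 9.81 FPKM, 45.2% (-1.14 ± 0.12, adjusted p = 5.54e-06). In all 4 genes every inhibited culture was below every TCR culture, although with all cultures scaled to 1 sum the change of Slc41a1 was -0.88 and no longer called.

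The other 4 genes called lower with PD184252 were at low levels. Slc26a11, an anion exchanger of the sulfate transporter family, read 1.04, 0.74 and 0.45 FPKM against 1.98, 1.80 and 1.21 in TCR cultures (-1.10 ± 0.26, adjusted p = 0.00425), and its call was lost without TCR replicate 1 (-0.97) or PD184252 replicate 3 (-0.82), and with all cultures scaled to 1 sum (-0.86). Slc4a4 was at 0.243 FPKM against 0.783, Slc17a6 at 0.03, 0.02 and 0.08 FPKM against 0.26, 0.30 and 0.42, and Slc1a2 at 0.01, 0.06 and 0.05 FPKM against 0.19, 0.22 and 0.16. The call of Slc1a2 was lost without TCR replicate 2 (-0.99) or PD184252 replicate 1 (-0.90), and with all cultures scaled to 1 sum (-0.92). Slc13a3, at 48.9% of the TCR mean (-0.95 ± 0.24, adjusted p = 0.00632), was called lower when TCR replicate 3 (-1.15) or PD184252 replicate 1 (-1.18) was left out.

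Abundant carriers differed with PD184252 by less than 2-fold, in either direction. Slc29a1 read 87.91, 95.21 and 89.71 FPKM, 58.2% of the TCR mean (-0.78 ± 0.06, adjusted p = 1.65e-07), and Slco4a1 was at 56.7% and Slc5a6 at 61%. On the other side, Slc44a2 read 108.58, 108.85 and 108.33 FPKM against 68.28, 70.09 and 71.71 (0.63 ± 0.05, adjusted p = 5.76e-07), Slc43a3 was at 166% (0.73 ± 0.09, adjusted p = 3.10e-05) and Slc52a3 at 168% (0.74 ± 0.08, adjusted p = 3.86e-06). For each of these the 3 inhibited cultures lay outside the range of the TCR cultures, which adds no support beyond the small p-values. The amino acid carriers Slc1a4 (100% of the TCR mean, adjusted p = 0.969), Slc7a3 (100%, adjusted p = 0.943) and Slc6a9 (124%, adjusted p = 0.0845) passed no threshold. Of the 13 listed volume genes, the anion channel subunit Lrrc8d rose with PD184252, from 8.56 to 18.4 FPKM, and Atp1b2 fell to 0.21 FPKM. Of all genes 0.98% were called higher and 2.51% lower.

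**Figure D5:**
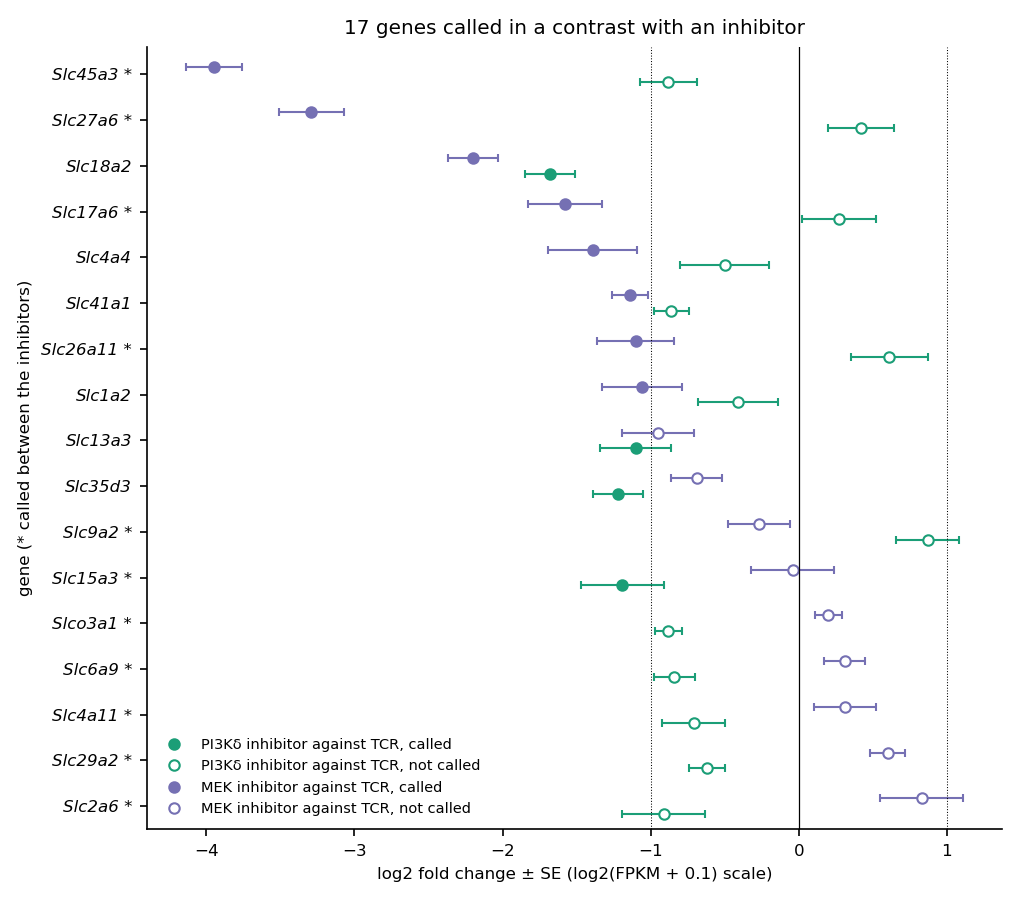
Log2 fold change against TCR-triggered CTL with IC87114 (PI3K inhibitor) and PD184252 (MEK inhibitor), with SE, for the 17 members called in a comparison that involves an inhibitor; an asterisk marks those called between the inhibitors. Slc45a3 and Slc27a6 are at -0.88 and 0.42 with IC87114 and at -3.95 and -3.29 with PD184252, while Slc18a2 is low with both.

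The cultures with the 2 inhibitors were then set against each other, which tests directly whether the inhibitors differ. The TCR cultures do not enter this difference, although they share in the estimate of the spread. With PD184252, 6 members were higher than with IC87114 (4.32%, against 1.39% of all genes) and 5 lower (3.6%, against 1.71% of all genes). By adjusted p alone 57 (41%) passed, 29 higher and 28 lower, against 28.9% of all genes. The widest gaps were those of Slc27a6 (0.34, 0.84 and 0.38 FPKM with PD184252 and 6.50, 7.69 and 8.45 FPKM with IC87114; -3.70 ± 0.22, adjusted p = 2.34e-08) and Slc45a3 (0.15, 0.24 and 0.26 FPKM and 2.45, 2.39 and 2.77 FPKM; -3.07 ± 0.19, adjusted p = 3.01e-08). Both of these genes were lower with the MEK inhibitor in every culture. Slc26a11 (0.743 and 2.55 FPKM; -1.71 ± 0.26, adjusted p = 0.000173), Slc9a2 (0.483 and 1.19 FPKM; -1.14 ± 0.21, adjusted p = 0.000815) and Slc17a6 (0.0433 and 0.41 FPKM, adjusted p = 7.05e-05) were lower too.

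Among the 6 that were higher in PD184252 than in IC87114 cultures were a glycine, a nucleoside and a lysosomal peptide carrier. Slc29a2 read 8.31, 8.87 and 9.60 FPKM with PD184252 and 3.60, 3.63 and 4.08 FPKM with IC87114, on either side of the TCR cultures (5.51, 6.15 and 5.90 FPKM), and differed by 1.22 ± 0.12 (adjusted p = 2.76e-06). Slc6a9 read 14.23, 16.26 and 17.02 FPKM and 5.59, 7.74 and 8.03 FPKM (1.16 ± 0.14, adjusted p = 1.70e-05). Slc2a6 read 0.77, 0.88 and 1.38 FPKM and 0.23, 0.24 and 0.20 FPKM (1.74 ± 0.28, adjusted p = 0.000296). These groups did not overlap for any of the 3 genes. Slc15a3 was at 1.72 and 0.73 FPKM (1.15 ± 0.28, adjusted p = 0.00603), Slco3a1 at 22.4 and 10.6 FPKM (1.07 ± 0.09, adjusted p = 9.57e-07), and Slc4a11, of the bicarbonate transporter family, at 4.73 and 2.23 FPKM (1.03 ± 0.21, adjusted p = 0.00175). Calls here leaned on single cultures. That of Slc6a9 was lost without IC87114 replicate 1 (0.99), that of Slco3a1 without IC87114 replicate 2 (1.00), that of Slc15a3 without IC87114 replicate 3 (0.86) or PD184252 replicate 1 (0.94), and that of Slc4a11 without IC87114 replicate 1 (0.86) or PD184252 replicate 3 (0.80). The zinc transporter Slc30a2 read 0.88, 0.41 and 0.20 FPKM with PD184252 and 0.18, 0.09 and 0.08 FPKM with IC87114. It was not called (1.32 ± 0.50, adjusted p = 0.061), but was with the replicate number as a block (adjusted p = 0.00619) and in a fit of the compared groups alone (adjusted p = 0.0281).

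Among the abundant induced genes, Slc1a4 was higher and Slc29a1 lower with PD184252 than with IC87114, by less than 2-fold. Slc1a4 was at 37.0 FPKM with PD184252 and 24.8 FPKM with IC87114 (0.57 ± 0.07, adjusted p = 1.97e-05), and Slc29a1 at 90.9 and 123 FPKM (-0.43 ± 0.06, adjusted p = 5.61e-05). For Slc18a2, which was called lower with both, the difference between the inhibitors was -0.53 (adjusted p = 0.0268), and for Slc41a1 it was -0.28 (adjusted p = 0.0948). The p for Slc41a1 does not show that the inhibitors act alike on it.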

How the data were processed

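The authors aligned paired-end reads of 12 CTL cultures with STAR 2.4.2a to mm10, counted them per gene with Subread 1.5.0, removed genes of low counts, and deposited FPKM made with edgeR on TMM-normalised counts for 11022 genes, replicates not pooled. Whether counting used strand is not given in the sources used here. From these FPKM, log2(FPKM + 0.1) was fitted in limma 3.58.1 (R 4.3.3) with 1 mean per group over all 12 cultures and an intensity trend. The 4 comparisons were adjusted by the Benjamini-Hochberg method over all genes, and a gene was called at an adjusted p below 0.05 and a change of more than 2-fold. On simulated data for TCR against unstimulated cultures, 100% of 200 genes changed by a log2 value of 2 among 11022 were recovered, with 0 false calls. The changed genes all had a mean of at least 1 FPKM, and the simulated noise was normal and independent between cultures. Genes of lower level and changes near 2-fold were therefore not tested by it.

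The members and lists were chosen with earlier results of these data known. Named genes were the 10 largest called changes in each direction and comparison among genes with a mean of at least 1 FPKM in a compared group, and the 2 highest members of each substrate group; further members were named after their values were seen. Single values of 2 genes that the counts include are not reported here. All 139 members matched the annotation, 138 by Entrez gene and 1 by synonym. Promoter sequences are from RefSeq (GRCm38.p6). Python 3.11.15, NumPy 2.4.6, pandas 2.3.3 and matplotlib 3.10.9 were used for summaries and figures.

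Replicate numbers come from the labels. Deviations from group means of cultures with the same number correlated across 9899 genes at 0.0037 to 0.153 for TCR and unstimulated cultures. They correlated at 0.239 to 0.451 for IC87114 and TCR cultures, at 0.122 to 0.182 for PD184252 and TCR cultures, and at 0.137 to 0.149 between the inhibitors. These ranges overlap and do not settle whether equal numbers mark pairs. Values printed are from the fit without the replicate block, so no comparison is taken as paired unless the block is named. The p-values measure the spread between cultures.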

Additional observations from a re-analysis of the deposited data

How the results depend on the processing

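The counts of called members (44, 4, 8 and 11 for TCR against unstimulated, IC87114 against TCR, PD184252 against TCR and PD184252 against IC87114) moved most with the value added before logs were taken and with the fold requirement, which bear on genes of low level or of a change near 2-fold. With 1 FPKM added the counts were 28, 1, 4 and 6, Slc18a2 being the 1 kept with IC87114. With 0.01 FPKM added the count with IC87114 was 8, of which 3 were higher and 5 lower. Without a fold requirement they were 99, 52, 57 and 57. With limma's treat test against a 2-fold change they were 28, 0, 3 and 2; for the 0, 1 member passed at an unadjusted p below 0.05. Keeping only genes with a mean of at least 1 FPKM gave 5 calls with PD184252 against TCR. Leaving out 1 culture at a time gave 39 to 45, 4 to 5, 7 to 11 and 9 to 13 calls. With all cultures scaled to 1 sum the calls, higher and lower, were 24 and 30, 3 and 3, 2 and 5, and 7 and 5. With the replicate number as a block (a paired fit of the 4 comparisons) they numbered 44, 4, 8 and 12, and no call other than that of Slc30a2 changed. Over the alternatives that kept the call rule (neither treat nor the absence of a fold requirement) and all genes followed, 3266 gene values kept their direction and side of the threshold, 66 lost their call, 23 gained one and 5 changed sign. Each gene was followed in all 4 comparisons, called or not, so most of the 3266 had no call to lose. Genes removed by the requirement of a mean of at least 1 FPKM were not counted, and 12 calls on triggering went with them. The 5 arose with all cultures scaled to 1 sum and concern genes that were not called: Slc38a10 on triggering (-0.32) and with PD184252 (0.25), Slc6a6 on triggering (-0.25), and Slc19a1 (0.19) and Slc7a6os (0.02) with PD184252. That scaling moves the median of all genes to -0.41, 0.19, 0.26 and 0.07 in the 4 comparisons. Depth limits what can be said of genes below about 0.38 FPKM, the more so the shorter the transcript. Among such genes, Slc41a3 has 2911 annotated exon bases, Slc17a6 5399 and Slc1a2 13133.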

Other observations

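The carriers set aside by name and the ATP-driven transporters give the surroundings of the members. Of the 11 carriers set aside, 3 rose on triggering (8.87% of all genes did): the large neutral amino acid transporter Slc7a5 (120.7 to 271.8 FPKM, log2 fold change 1.17, adjusted p = 2.45e-11), its partner chain Slc3a2 (79.2 to 197.4 FPKM, 1.32) and the glutamine transporter Slc1a5 (122.6 to 270.5 FPKM, 1.14). The glucose transporters Slc2a3 (70.4 and 109.8 FPKM) and Slc2a1 (54.2 and 41.4 FPKM) were not called. With IC87114 Slc7a5 was at 188.7 FPKM and with PD184252 at 297.3 FPKM, both within 2-fold of the level without inhibitor.

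Among 25 ABC transporters, which use ATP to export lipids, drugs and other molecules, 7 fell on triggering and 1 rose (11.1% and 8.87% of all genes did), beside a median log2 fold change of -0.44. The cholesterol exporter Abcg1 fell from 3.11, 2.46 and 2.45 to 0.53, 0.43 and 0.49 FPKM (-2.24 ± 0.17, adjusted p = 1.48e-08), Abcg3 from 5.82 to 1.25 FPKM and Abca2 from 24.9 to 8.28 FPKM. Abca7, Abcb11 and Abcc3 fell as well, and the phosphatidylcholine exporter Abcb4 rose from 0.22 to 0.913 FPKM. The cholesterol exporter Abca1, at 0.57 FPKM after triggering, was called higher with IC87114 (1.20, 1.35 and 1.65 FPKM), and the drug exporter Abcb1a, at 0.92 FPKM, was called higher with PD184252 (2.55, 1.97 and 2.24 FPKM).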
